A study of Mus musculus with 6 samples.

Results

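The ATP-sensitive potassium (KATP) channel is built from 2 gene families, and its 4 subunit genes, Kcnj8 (Kir6.1), Kcnj11 (Kir6.2), Abcc9 (SUR2) and Abcc8 (SUR1), are described here across the cells of the mouse cortex after stroke. The members were chosen by gene symbol, 4 of the 32285 genes of the matrix, by a rule that uses symbols and no measured value. The choice was made with earlier results of these data known, and the study had used Abcc9 as a pericyte marker. The libraries came from male mice of 8 to 12 weeks that were heterozygous for the RGS5::GFP reporter and had a permanent occlusion of the middle cerebral artery. Cortex of the stroke side (ipsilateral) and the matching area of the other side (contralateral) was taken 1, 12 or 24 h later, which gives 6 groups of 1 library each. The methods of the study name 3 reporter mice for these libraries, so libraries may share animals, and which animal gave which library was not known here. The contralateral tissue also came from operated animals. Live cells depleted of mature neurons were sequenced with the 10x 3′ method, in which each captured transcript is counted as 1 unique molecular identifier (UMI).

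KATP channels couple the energy state of a cell to its membrane potential: they close when ATP is high and open when ATP falls or ADP rises, and potassium leaving through the open pore hyperpolarises the cell. A Kir6 subunit forms the pore, and a sulfonylurea receptor (SUR), an ABC protein that pumps nothing, senses the nucleotides and binds the drugs that open or close the channel. The vascular channel pairs Kir6.1 with SUR2B, the channel of pancreatic beta cells and many neurons pairs Kir6.2 with SUR1, and in the vessel wall opening relaxes the contractile mural cells, the pericytes of capillaries and the smooth muscle cells of arterioles. Abcc9 makes SUR2A or SUR2B by the choice of its last exon, which a count per gene cannot tell apart.

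The 4 genes lie as neighbouring pairs. On the mouse build GRCm38 in the GENCODE annotation, Kcnj8 covers chr6:142564837-142571614 and Abcc9 covers chr6:142587862-142702315, both on the minus strand, with 16247 bases and no annotated gene between them. Kcnj11 at chr7:46093953-46100764 and Abcc8 at chr7:46104523-46180033 are also both on the minus strand and 3758 bases apart. Abcc9 overlaps an antisense gene, 5330439B14Rik, which had 7 UMIs in pericyte-like cells, against 3925 of Abcc9. The 250 bases before the RefSeq start of each gene of the vascular pair are printed in transcript direction, because these genes were detected together in the cells described next. Capitals mark the letters CANNTG, the E-box, which was the only one of 5 searched motifs with a match in both. GENCODE starts Abcc9 farther upstream, at 142702315, so the end of its window lies inside the gene by that annotation. The E-box of Abcc9, 27 to 22 bases before the RefSeq start, lies in this overlap.
Kcnj8, chr6:142571615-142571864, minus strand: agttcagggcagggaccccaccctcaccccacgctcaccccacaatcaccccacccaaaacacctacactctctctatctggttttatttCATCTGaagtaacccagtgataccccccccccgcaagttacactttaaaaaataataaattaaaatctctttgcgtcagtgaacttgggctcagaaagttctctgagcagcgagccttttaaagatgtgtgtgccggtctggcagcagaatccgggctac
Abcc9, chr6:142702275-142702524, minus strand: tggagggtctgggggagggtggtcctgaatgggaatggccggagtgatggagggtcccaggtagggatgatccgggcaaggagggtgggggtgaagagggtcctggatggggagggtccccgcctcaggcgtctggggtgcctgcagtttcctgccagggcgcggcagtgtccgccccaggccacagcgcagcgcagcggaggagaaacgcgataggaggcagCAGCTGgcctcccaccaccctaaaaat

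An E-box was present in 66.2% of all 32817 promoter windows of this length. All motifs were searched on both strands. The RBPJ core, TGGGAA, had 1 match in the Abcc9 window and none in the Kcnj8 window, and 21.6% of all windows held it. The same was found for the NFAT core, GGAAA, which 55.6% of all windows held, and its match did not overlap that of the RBPJ core. The GC box, GGGCGG, again had 1 match before Abcc9 and none before Kcnj8, beside 32.7% of all windows. The TATA box, searched as TATAAA, was in neither window and in 12.4% of all. The windows also differed in base composition, with 66.8% G and C before Abcc9 and 49.2% before Kcnj8, against a median of 52.4% over all windows.

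The matrix held 17357 cells with a median of 5338 UMIs, from 1221 to 5873 cells in a library. The barcodes carry library numbers 1 to 6 that the labels used here do not tie to a side or a time, so values are given per numbered library and no group was compared with another. With 1 library in a group and no replicates, no test was run, and all intervals are 95% exact intervals that cover counting error only. Cells were clustered without the 4 members and named from fixed markers, and 77 of 79 markers were highest in their own class. Of the cell barcodes, 26 occurred in more than 1 library, and 17.2 shared pairs are expected from the size of the barcode list.

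Abcc9 and Kcnj8 were genes of the pericyte-like cells. Their level, counts per 1000000 UMIs of the pooled cells of a class (CPM), was 1314 CPM for Abcc9 (interval 1274 to 1356, 3925 UMIs) and 1657 CPM for Kcnj8 (1611 to 1704, 4949 UMIs) in the 808 pericyte-like cells. All 6 markers that named this class, Pdgfrb, Rgs5, Vtn, Higd1b, Cox4i2 and Ndufa4l2, were highest in it, from 1081 CPM for Cox4i2 to 19317 CPM for Vtn. Abcc9, used by the study to recognise pericytes, took no part in the naming here.

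In single pericyte-like cells the median was 4 UMIs of Abcc9 and 5 UMIs of Kcnj8. The highest cell held 31 UMIs of Abcc9 and 46 UMIs of Kcnj8. At least 1 UMI of Abcc9 was found in 91.2% of pericyte-like cells (89.0 to 93.1), at a median depth of 3302 UMIs per cell, and in 0.246% of microglia-like cells (0.150 to 0.380), which should lack it, at a median of 5150 UMIs. For Kcnj8 these shares were 93.3% (91.4 to 94.9) and 0.123% (0.0590 to 0.226). The share depends on depth. After each cell was thinned to 1000 UMIs, with no cell of either class left out, 66.3% of pericyte-like cells kept Abcc9 and 69.9% kept Kcnj8, against 0.0984% and 0.0369% of microglia-like cells.

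The class next in order was smooth muscle-like, with 166 CPM of Abcc9 (150 to 184) and 332 CPM of Kcnj8 (308 to 357) in 318 cells, so that pericyte-like cells stood 7.90-fold higher for Abcc9 (7.09 to 8.83) and 4.995-fold higher for Kcnj8 (4.62 to 5.41). That class was a mixture. When the mural cells were clustered again on their own, 197 of its 318 cells fell into smooth muscle-like subclusters, and these held 9 of its 361 Abcc9 UMIs and 13 of its 720 Kcnj8 UMIs. Another 65 cells fell into pericyte-like subclusters and carried 273 Abcc9 UMIs and 503 Kcnj8 UMIs. The remaining 56 cells, in unnamed subclusters, carried 79 and 204. Library 4 weighed most on the level of this mixture, and without it the smooth muscle-like class had 101 CPM of Abcc9 and 220 CPM of Kcnj8, and the ratio of pericyte-like cells to it was 12.5 for Abcc9 and 7.07 for Kcnj8.

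With the mural classes of this second clustering, the vascular pair was much higher in pericyte-like than in smooth muscle-like cells. The contractile gene Acta2 was 12827 and 14748 CPM in smooth muscle-like subclusters 4 and 5. Pericyte-like cells included subcluster 2, with Acta2 at 703 CPM, though the study defines pericytes as lacking Acta2. Unnamed subclusters 7 to 9, with Acta2 from 1515 to 2812 CPM, were in neither class. The 816 pericyte-like cells held 1338 CPM of Abcc9 and 1743 CPM of Kcnj8. Among the 197 smooth muscle-like cells these levels were 6.49 CPM (2.97 to 12.3) and 9.37 CPM (4.99 to 16.02). The ratio was 206-fold for Abcc9 (109 to 451) and 186-fold for Kcnj8 (109 to 350). The smooth muscle-like cells were the deeper ones, with a median of 7099 UMIs against 3292, and 5 of them had an Abcc9 UMI and 12 had a Kcnj8 UMI. By library, the 4 libraries with at least 20 smooth muscle-like cells ranged from 0 to 12.6 CPM of Abcc9 and from 2.27 to 18.9 CPM of Kcnj8, all far under the lowest pericyte-like value of any library, 993 CPM of Abcc9 and 1212 CPM of Kcnj8. Without the second clustering, at the coarser and the finer resolution of the clustering of all cells, the smooth muscle-like class held 6.11 CPM of Abcc9 and 9.78 CPM of Kcnj8.

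Set against all genes, both lay near the top, and at ranks 1 and 2 with the second clustering. Ranks were not computed at the other resolutions. Of 12934 genes with at least 200 UMIs, 47 (0.363%) were at least 4-fold higher in pericyte-like cells than in every other named class, and both Abcc9 and Kcnj8 were among them. By this ratio Abcc9 ranked 15 and Kcnj8 ranked 32. With the mural classes of the second clustering 55 genes (0.425%) passed, and Abcc9 had the highest ratio to the next class of all 12934, 206, followed by Kcnj8 at 77.7 and then by Nodal at 75.9, Nts at 67.8 and Atp13a5 at 52.7. The unnamed mural subclusters 7 to 9 were left out as classes in this second ranking. They held 218 to 524 CPM of Abcc9 and 573 to 965 CPM of Kcnj8. Abcc8 and Kcnj11 had too few UMIs to enter.

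**Figure D1:**
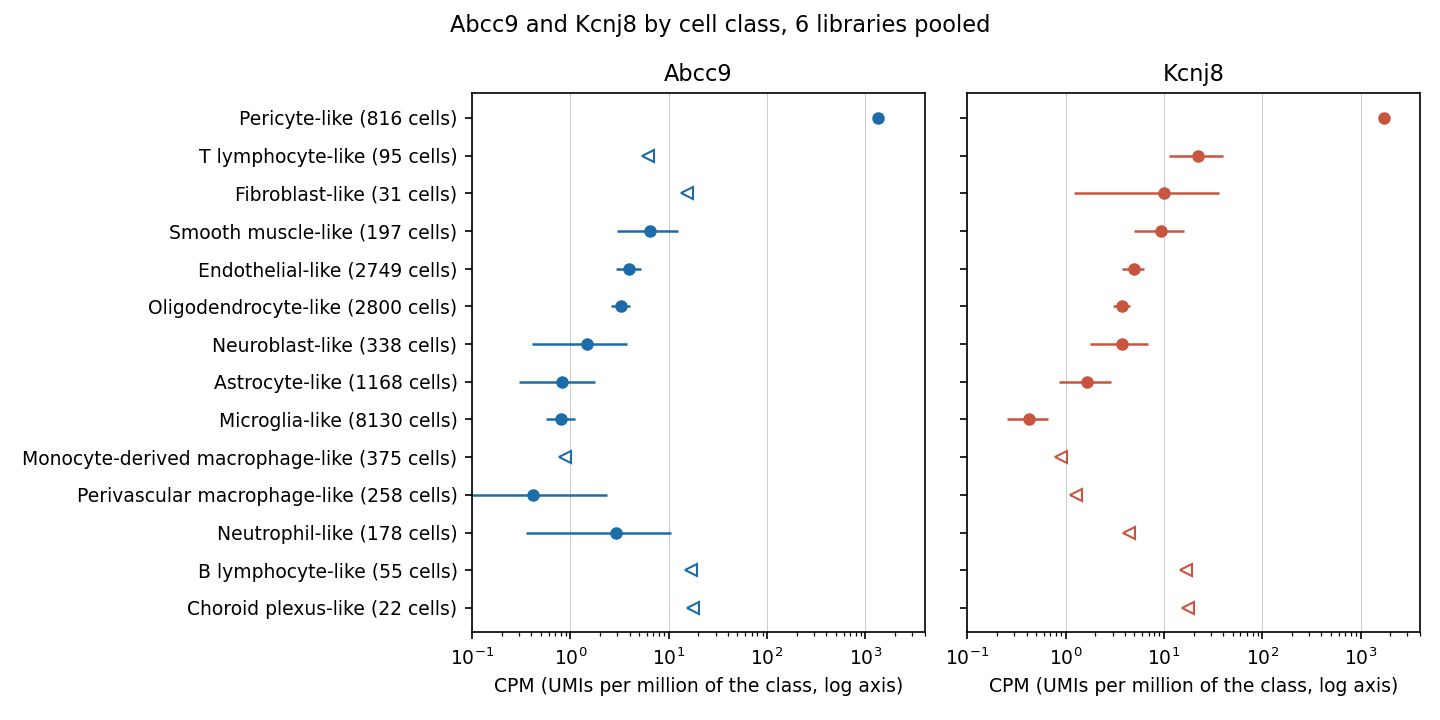
Level of Abcc9 and Kcnj8 in CPM (log axis) in each named class of at least 20 cells, 6 libraries pooled, with the mural classes taken from the second clustering; bars are 95% Poisson intervals and open triangles mark the limit of 3 UMIs where no UMI was counted. Pericyte-like cells, at 1338 and 1743 CPM, lie far to the right of every other class, of which the highest are smooth muscle-like at 6.49 CPM for Abcc9 and T lymphocyte-like at 22.4 CPM for Kcnj8.

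Below the pericytes, the order of Abcc9 levels was smooth muscle-like at 6.49 CPM, endothelial-like at 3.94 CPM (2.91 to 5.21), oligodendrocyte-like at 3.27 CPM (2.601 to 4.05), neutrophil-like at 2.93 CPM (0.355 to 10.6) and neuroblast-like at 1.48 CPM (0.403 to 3.79). The intervals of neighbours in this order overlapped. Astrocyte-like and microglia-like cells followed at 0.826 and 0.799 CPM, and perivascular macrophage-like cells had 1 UMI. No Abcc9 UMI was counted in monocyte-derived macrophage-like, T lymphocyte-like, B lymphocyte-like, fibroblast-like or choroid plexus-like cells, where 3 UMIs would have been from 0.888 CPM, in the macrophages, to 17.6 CPM, in the choroid plexus. For scale, barcodes of 1 to 50 UMIs, which hold free RNA and no cell, carried 13.8 CPM of Abcc9 and 28.2 CPM of Kcnj8. These are levels within free RNA, which is only part of the UMIs of a class.

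For Kcnj8, T lymphocyte-like cells came after pericytes with 22.4 CPM (11.2 to 40.1), followed by fibroblast-like at 10.1 CPM (1.23 to 36.5, 2 UMIs), smooth muscle-like at 9.37 CPM, endothelial-like at 4.90 CPM (3.75 to 6.30), oligodendrocyte-like at 3.74 CPM (3.02 to 4.57), neuroblast-like at 3.70 CPM (1.78 to 6.81), astrocyte-like at 1.65 CPM (0.853 to 2.88) and microglia-like at 0.422 CPM (0.254 to 0.659). The intervals of neighbours overlapped down to astrocyte-like, and those of astrocyte-like and microglia-like cells did not. No Kcnj8 UMI was counted in either macrophage class, neutrophil-like, B lymphocyte-like or choroid plexus-like cells.

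In endothelial-like and oligodendrocyte-like cells, most cells with a UMI of either gene also carried pericyte marker transcripts. In the endothelial-like class, which lines the vessels the pericytes wrap, 37 of 2749 cells had an Abcc9 UMI, and 86.5% of these also had at least 2 different pericyte marker genes, against 3.32% of the cells without Abcc9. For Kcnj8 it was 87.0% of 23 cells, against 3.74%. In oligodendrocyte-like cells it was 88.2% of 17 Abcc9 cells, against 0.287%, and 80.0% of 20 Kcnj8 cells, against 0.252%. Other classes did not all follow this. In microglia-like cells it was 20% of 20 Abcc9 cells, against 0.0617%, and 40% of 10 Kcnj8 cells, against 0.0616%. Astrocyte-like cells had 100% of 2 Abcc9 cells and 40% of 5 Kcnj8 cells. Taking only cells with fewer than 2 pericyte marker genes, the endothelial-like level was 0.511 CPM of Abcc9 (0.187 to 1.11) and 0.255 CPM of Kcnj8 (0.0527 to 0.747), beside 0.378 CPM (0.220 to 0.605) and 0.133 CPM (0.0490 to 0.290) in microglia-like cells chosen the same way. Whether these UMIs came from doublets, free RNA or the cells themselves was not tested.

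Of the 83 Abcc9 UMIs in oligodendrocyte-like cells, 79 lay in cluster 12 of that class, in 13 of its 370 cells. The same cluster held 91 of the 95 Kcnj8 UMIs, in 16 cells. All of these cells had at least 2 pericyte marker genes, and 9 of the 13 and 12 of the 16 were called doublets. In library 3 the cluster held 80.9 CPM of Abcc9 and in library 4 it held 32.7 CPM, while in libraries 5 and 6 no UMI of either gene was counted.

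In the endothelial-like class, cluster 9, led by Ctla2a and Lcn2 and drawn mostly from libraries 4 (179 cells) and 6 (322 cells), held 14.8 CPM of Kcnj8 (10.6 to 20.1), 7.14-fold that of the other endothelial-like clusters (4.09 to 12.9). Its Abcc9 level was 3.60 CPM, a ratio of 0.894 (0.398 to 1.82). The 41 Kcnj8 UMIs came from 8 of 548 cells, 24 of them from a single cell, and 7 of the 8 cells had at least 2 pericyte marker genes. Leaving out cells with 2 pericyte marker genes left 1 UMI.

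In T lymphocyte-like cells the pericyte markers did not accompany Kcnj8. Their 11 Kcnj8 UMIs lay in 9 of 95 cells (9.47%, 4.42 to 17.2, at a median of 4707 UMIs), at most 2 UMIs in a cell, and none of the 9 cells had 2 pericyte marker genes. Not 1 Abcc9 UMI was counted in these cells, where 3 UMIs would have been 6.12 CPM. The Kcnj8 UMIs were spread over 5 libraries, with 1, 2, 0, 4, 3 and 1 UMIs in libraries 1 to 6. This cluster was led by Ccl5 and Gzma, genes of cytotoxic lymphocytes, and natural killer markers scored second to the T lymphocyte markers in it.

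The other pair, Kcnj11 and Abcc8, was close to absent from these cells, from which mature neurons had been removed. Over all barcodes, cells or not, the matrix held 11 UMIs of Kcnj11 and 8 UMIs of Abcc8, against 6762 of Kcnj8 and 5047 of Abcc9. Among the called cells, Kcnj11 had 6 UMIs in 6 cells, 4 astrocyte-like and 2 neuroblast-like. Abcc8 had 3 UMIs in 3 cells of library 3, 2 neuroblast-like and 1 pericyte-like, the latter with 3 UMIs of Abcc9 and 2 of Kcnj8. In pericyte-like cells no Kcnj11 UMI was counted in 808 cells, which by the limit of 3 counts allows up to 0.371% of the cells to hold one and by the exact interval up to 0.456%, and Abcc8 stood at 0.335 CPM (0.00848 to 1.87). At this depth levels under about 1 CPM in the pericyte-like class, such as that of Abcc8, rested on fewer than 3 UMIs.

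**Figure D2:**
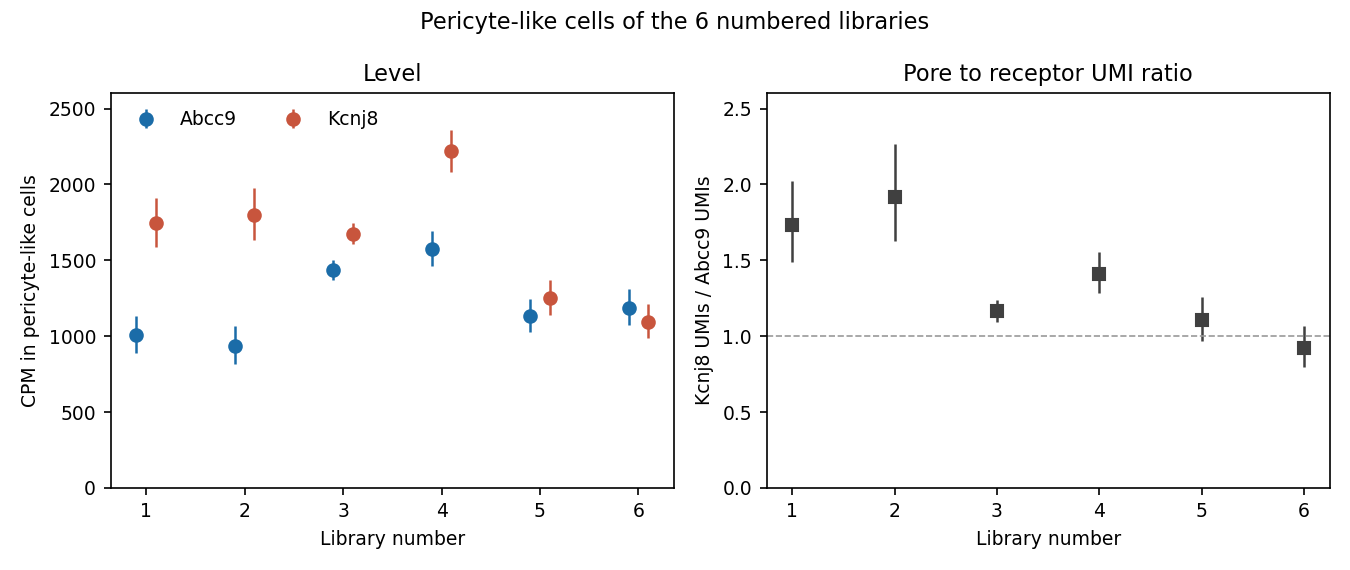
Pericyte-like cells of the clustering of all cells in the 6 numbered libraries. Abcc9 and Kcnj8 are in CPM on the left, and Kcnj8 UMIs per Abcc9 UMI are on the right. The dashed line marks equal counts, and bars are 95% exact intervals. Library 4 is highest for both genes at 1572 and 2219 CPM, and the ratio runs from 1.92 in library 2 to 0.924 in library 6.

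Both genes were high in the pericyte-like cells of every library. Abcc9 measured 1005, 938, 1437, 1572, 1135 and 1186 CPM in libraries 1 to 6, over 81, 79, 360, 119, 86 and 83 cells. Kcnj8 measured 1743, 1800, 1674, 2219, 1252 and 1096 CPM in the same order. The highest Abcc9 value was 1.68-fold the lowest, and the highest Kcnj8 value was 2.02-fold the lowest. Of 1879 genes at 100 CPM or more in this class, 627 (33.4%) had a highest library value at least 2-fold above the lowest. The spread of Kcnj8, just past 2-fold, was thus one that many genes showed. With the pericyte-like cells of the second clustering the spread was 1.54-fold for Abcc9 and 1.88-fold for Kcnj8. Median depth in these cells ran from 2833 to 4113 UMIs, and the summed pericyte markers ran from 22378 CPM in library 6 to 33701 CPM in library 2. Summed markers of other types in these cells ran from 1842 to 2139 CPM for smooth muscle, from 200 to 922 CPM for endothelium and from 156 to 1956 CPM for microglia. Their part in the spread was not tested.

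The pair did not keep 1 ratio between libraries. Kcnj8 UMIs per Abcc9 UMI were 1.73 (1.49 to 2.03), 1.92 (1.63 to 2.27), 1.17 (1.10 to 1.24), 1.41 (1.28 to 1.55), 1.10 (0.966 to 1.26) and 0.924 (0.799 to 1.07) in libraries 1 to 6, and 1.26 (1.21 to 1.32) in all. Libraries 1 and 2 lay above the other 4 with no overlap of intervals except for library 1 with library 4. In the pericyte-like cells of the second clustering, the ratios were 1.77, 1.88, 1.16, 1.49, 1.14 and 1.13 in the same order. These cells include the response cells of libraries 4 and 6 described below. Library 6 was then above 1 (1.002 to 1.27), and the interval of library 4 (1.36 to 1.63) overlapped those of libraries 1 and 2. A UMI ratio compares counts of 2 transcripts, not numbers of channel subunits. The labels name 2 kit versions, single index at 1 and 24 h and dual index at 12 h. The methods of the study give a NovaSeq sequencer for 1 and 12 h and a HiSeq sequencer for 24 h. Since the numbers are not tied to samples, kit, sequencer, side and time cannot be told apart here.

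The ratio also differed among the mural subclusters, which were formed without either gene. Subcluster 0 (230 cells, 151 of library 3 and 69 of library 4) had 1394 CPM of Abcc9 and 2395 CPM of Kcnj8, a ratio of 1.72 (1.59 to 1.86). Subcluster 1 (209 cells, mostly of libraries 1, 2, 5 and 6) had 1229 and 1710 CPM, a ratio of 1.39 (1.28 to 1.51). Subcluster 2 (196 cells, 150 of library 3 and 32 of library 4), which also carried the contractile gene Acta2 at 703 CPM, had 1391 and 1344 CPM, a ratio of 0.966 (0.885 to 1.05). The pore transcript therefore led in subclusters 0 and 1 and counts were near equal in subcluster 2. Subcluster 3 (122 cells from all libraries) had 1732 and 1290 CPM, a ratio of 0.745 (0.655 to 0.846).

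Over the 5 pericyte-like subclusters Abcc9 thus ran from 946 CPM in subcluster 6 to 1732 CPM in subcluster 3, and Kcnj8 from 1290 CPM in subcluster 3 to 2395 CPM in subcluster 0, so that in the pooled cells subcluster 3 was highest for the receptor and lowest for the pore. For the pore this order did not hold in library 3, where Kcnj8 was 1720 CPM in subcluster 3 and 1430 CPM in subcluster 2. In library 1, subcluster 3 had 1.07 of the Kcnj8 of other pericyte-like cells (0.851 to 1.33), while libraries 2, 5 and 6 lay below 1. For Abcc9 this ratio was 1.98 in library 3 and 1.97 in library 6. In libraries 1, 2 and 5 it was 1.30, 1.14 and 1.15, with intervals that held 1. Subcluster 3 was also the shallowest mural subcluster, at a median of 2633.5 UMIs. Within library 3, which alone held at least 20 cells of subclusters 0, 2 and 3, the ratio was 1.70 (1.54 to 1.88), 0.967 (0.877 to 1.07) and 0.602 (0.476 to 0.758), the same order as in the pooled cells. Within subcluster 1 it still differed between libraries, with 1.82 (1.48 to 2.26) in library 1, 2.38 (1.95 to 2.93) in library 2, 1.28 (1.08 to 1.504) in library 5 and 1.01 (0.857 to 1.18) in library 6. Subcluster 3 was under 1 in every library except library 1, where it was 1.53 (1.12 to 2.09). Both the subcluster and the library thus went with the ratio.

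Subcluster 6 was the response subcluster, the pericyte-like subcluster in which the chemokine genes Ccl11, Ccl7, Cxcl2 and Cxcl1 and the metallothionein Mt1 averaged highest. It held 59 cells, 26 of library 4 and 33 of library 6 and none of the others, and carried Il11 at 4590 CPM and Ednrb at 3570 CPM. In the clustering of all cells, 55 of the 59 had been placed with the smooth muscle-like cells. These cells had less Abcc9 than the other pericyte-like cells and a similar Kcnj8 count. Kcnj8 was 1702 CPM (1563 to 1851), 0.974 of the level in the 757 other pericyte-like mural cells (0.890 to 1.06). Abcc9 was 946 CPM (843 to 1059), 0.683 of their level (0.605 to 0.768).

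With library 4 left out of the whole comparison the ratios were 0.584 for Abcc9 and 0.804 for Kcnj8, and with library 6 left out they were 0.859 and 1.26. These ratios set response cells of 1 library against other cells pooled over libraries, and for Kcnj8 their direction turned with the library left out. The lower Abcc9 level was seen inside both libraries. In library 4, Abcc9 was 1204 CPM, 0.736 of the level of the other pericyte-like cells of that library (0.612 to 0.879), and in library 6 it was 783 CPM, 0.617 of it (0.508 to 0.747). For Kcnj8 the within-library ratios were 1.01 (0.878 to 1.15) and 1.17 (0.990 to 1.38), both with intervals that held 1, so inside the libraries the direction did not turn. Neither gene passed a 2-fold difference. Of 3647 genes at 50 CPM or more in the 2 sets together, 689 (18.9%) were at least 2-fold lower in the response subcluster and 289 (7.92%) were at least 2-fold higher, and both members lay with the rest between these bounds. Among other pericyte genes, Vtn was 5368 CPM there and from 17062 to 25428 CPM in subclusters 0 to 3, and Atp13a5 was 128 CPM there and from 1213 to 2007 CPM in subclusters 0 to 3. The receptor gene Pdgfrb was 1257 CPM there and from 1483 to 2016 CPM in subclusters 0 to 3. The other markers that named the class were also lower there than in subclusters 0 to 3. Rgs5 was 977 against 3268 to 4072 CPM, and Higd1b was 426 against 1150 to 3150 CPM. Cox4i2 was 448 against 742 to 1561 CPM, and Ndufa4l2 was 781 against 1302 to 2745 CPM. The fibroblast-associated gene Dcn was 1512 CPM in subcluster 6, and its part in the result was not tested.

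Subcluster 8 stood apart. Its 33 cells, drawn from all 6 libraries, had 965 CPM of Kcnj8 (808 to 1144) but only 218 CPM of Abcc9 (147 to 311), a ratio of 4.43 (2.97 to 6.83). Library 4 held 16 of the 30 Abcc9 UMIs, and its ratio was 1.5 (0.764 to 3.02), while libraries 3 and 6 had 5.43 and 6 and library 5 had 23 Kcnj8 UMIs and no Abcc9 UMI. Kcnj8 was 0.554 and Abcc9 was 0.163 of the level in the 816 pericyte-like cells. The cells carried Pdgfrb at 827 CPM, Ccl19 at 1945 CPM, Acta2 at 1539 CPM and Nr2f2 at 1205 CPM, no UMI of Atp13a5, and no called doublet. Their marker score, a mean log2 ratio, was 6.46 for pericyte, 5.01 for smooth muscle and 3.03 for fibroblast. They were left unnamed because the fibroblast score passed a limit of 3, which the response subcluster, at 2.71, did not reach. Unnamed subclusters 7 and 9, in which 58.3% and 31.3% of cells were called doublets, had 524 and 371 CPM of Abcc9 and 573 and 622 CPM of Kcnj8. Of the smooth muscle-like subclusters, number 4 had 14.2 CPM of Abcc9 and 17.3 CPM of Kcnj8 and number 5 had no Abcc9 UMI and 2.66 CPM of Kcnj8 (2 UMIs). The pericyte gene Vtn ran the same way in these, at 1474 CPM in number 4 and 102 CPM in number 5.

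**Figure D3:**
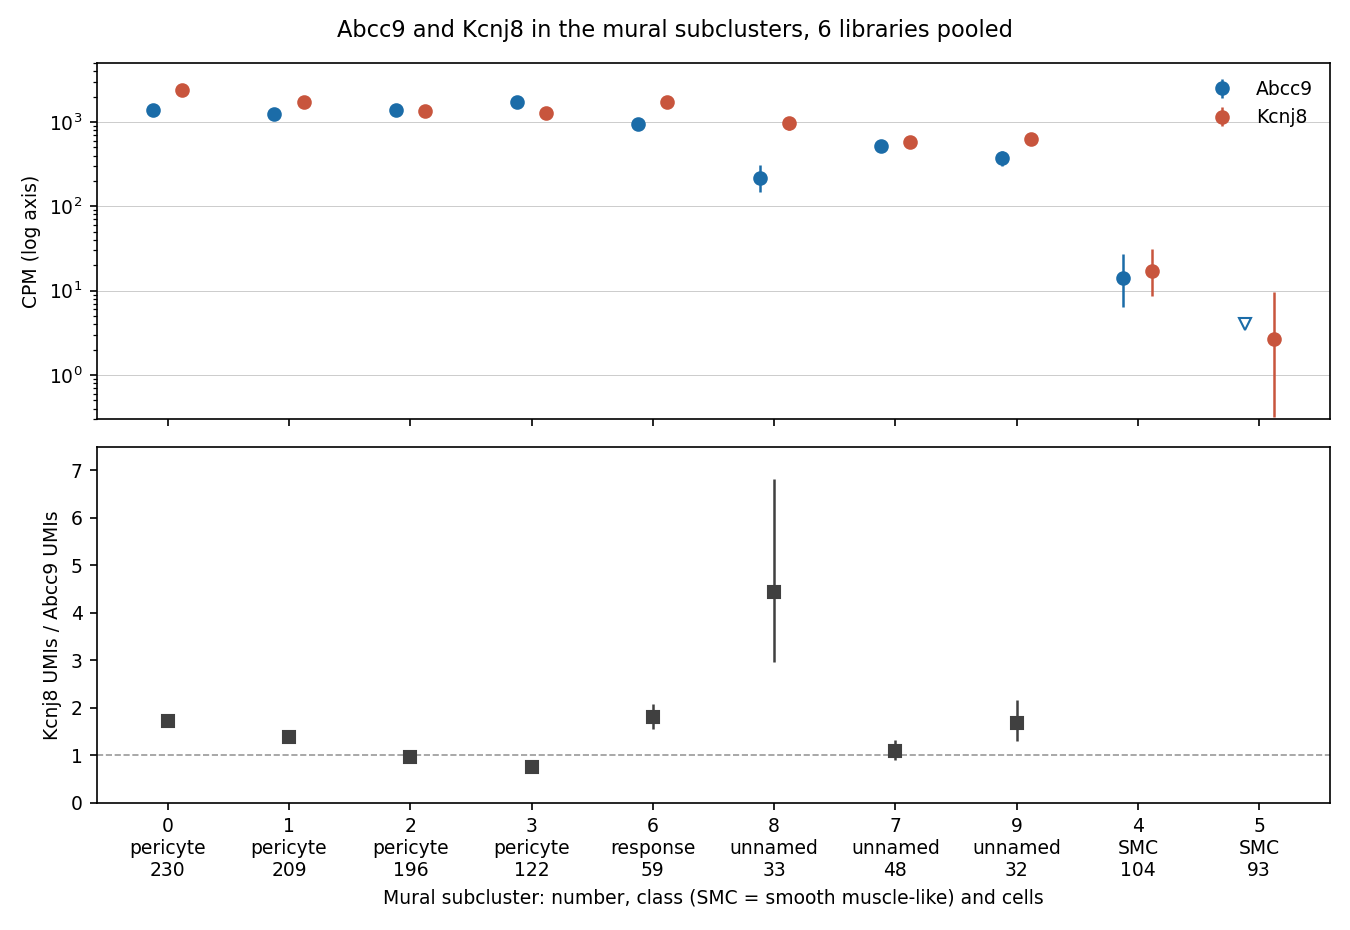
Abcc9 and Kcnj8 in CPM (log axis, upper panel) and Kcnj8 UMIs per Abcc9 UMI (lower panel, for subclusters with at least 20 Abcc9 UMIs) in the 10 mural subclusters, 6 libraries pooled; bars are 95% exact intervals and the open triangle marks the limit of 3 UMIs where none was counted. The 5 pericyte-like subclusters lie between 946 and 2395 CPM for both genes, unnamed subcluster 8 keeps Kcnj8 at 965 CPM with Abcc9 at 218 CPM, and smooth muscle-like subclusters 4 and 5 lie under 20 CPM.

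The pore and the receptor of the vascular channel were found in the same cells. Of 808 pericyte-like cells, 696 had UMIs of both Abcc9 and Kcnj8 (86.1%, 83.6 to 88.4), 41 had Abcc9 alone, 58 had Kcnj8 alone and 13 had neither. Of the cells with Abcc9, 94.4% also had Kcnj8, and of the cells with Kcnj8, 92.3% also had Abcc9. If the genes were detected independently of each other, the product of their shares would give 85.1%, so the observed share was 1.01 times that product. With the genes found in 91.2% and 93.3% of cells, this ratio could not lie far from 1. It therefore cannot show whether detection was independent. The cells with a single subunit were shallower than those with both, with medians of 2642 UMIs (Abcc9 alone) and 2880 UMIs (Kcnj8 alone) against 3420 UMIs.

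The share of cells with both rose with depth. When the pericyte-like cells were divided by depth into 3 sets of near equal size, 77.8% had both in the shallowest set, at a median of 2366 UMIs, 84.8% in the middle set, and 95.9% in the deepest set, at a median of 4664 UMIs. In each set the share was 1.01 times the product of the shares, again with limited room to differ from 1. By library the share with both was 77.8, 79.7, 88.3, 87.4, 89.5 and 85.5% in libraries 1 to 6, lowest in the libraries where Abcc9 was lowest. Thinned to 1000 UMIs per cell, 49.9% of cells kept both genes, 1.08 times the product of 46.4%, and libraries 1 to 6 ran from 38.3% to 55.8%. The lower shares after thinning leave the ratio to the product more room. By library it ran from 1.02 in library 2 to 1.09 in library 1.

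**Figure D4:**
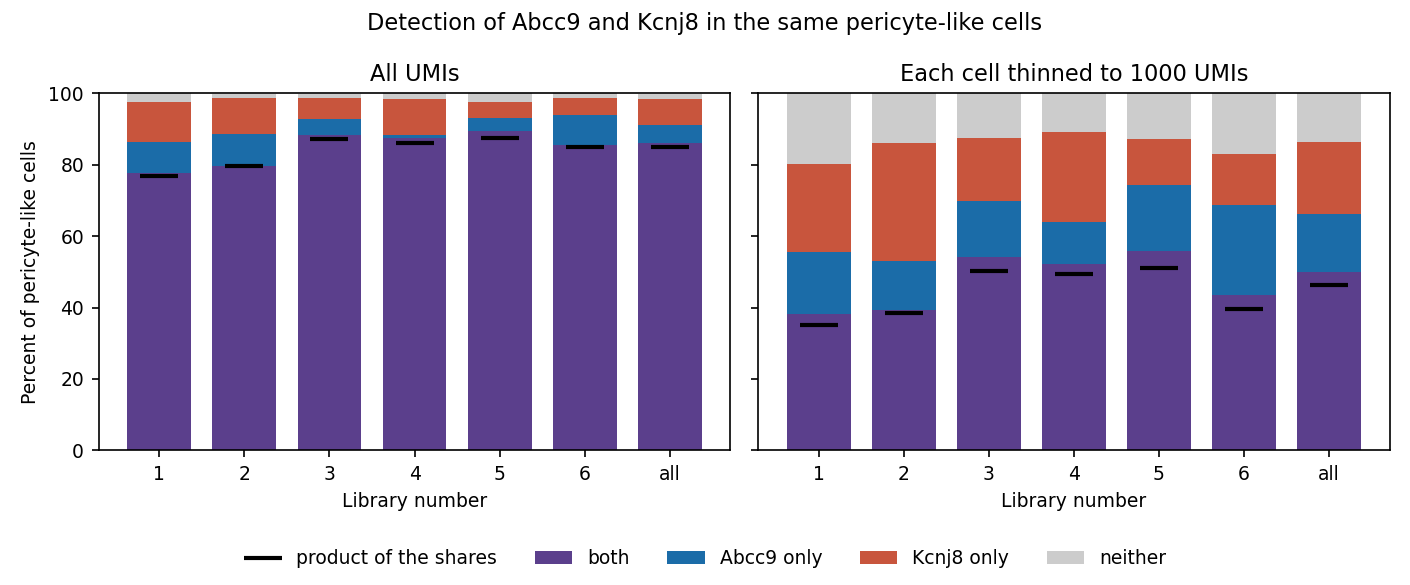
Percent of pericyte-like cells with UMIs of both Abcc9 and Kcnj8, of 1 of them or of neither, in libraries 1 to 6 and in all, with all UMIs on the left and after thinning each cell to 1000 UMIs on the right; black dashes mark the product of the shares of the genes. Both genes were found in 77.8% to 89.5% of cells with all UMIs, and in 38.3% to 55.8% of cells after thinning.

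Detection in 1 cell of the other 3 pore and receptor combinations was almost nil. Over all 17357 cells, 932 had Kcnj8 and 899 had Abcc9, and 800 had both, of which 696 were pericyte-like, 73 smooth muscle-like in the clustering of all cells and 31 of other classes. Kcnj8 met Abcc8 in 1 pericyte-like cell. Kcnj11 met neither Abcc9 nor Abcc8 in any cell. The response subcluster had both vascular subunits in 89.8% of its 59 cells (79.2 to 96.2), and subcluster 8 in 42.4% of its 33 cells (25.5 to 60.8), with Kcnj8 alone in another 48.5%.

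Over the 14 named classes of at least 20 cells, the genes whose pattern was most like that of Abcc9 (Pearson correlation of log2(CPM + 1), classes of the clustering of all cells) were Casq2 (0.98), Tbx3os1 (0.97), Aspn (0.97), Gm13861 (0.97) and Airn (0.97). For Kcnj8 they were Ndufa4l2 (0.95), Gm12002 (0.94), Rasl12 (0.93), Enpep (0.93) and Cysltr2 (0.92). Abcc9 and Kcnj8 correlated with each other at 0.87, less than with those genes. These values describe 14 points that share libraries and of which only the mural classes are high.

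The genes that act on or beside the channel were taken from 6 fixed lists of 64 genes, of which 46 had at least 200 UMIs. Of these 46, 12 (26.1%) were highest in pericyte-like cells and 11 (23.9%) in smooth muscle-like cells, against 6.90% and 2.80% of all 12934 genes at that level. These counts use the smooth muscle-like class of the clustering of all cells, which also held response cells and put Ednrb on the smooth muscle side. The lists were chosen around the channel, and 1 of them, of mural channels, had 4 of 9 genes highest in each mural class. A share above that of all genes was thus built into the choice. In the second clustering 15 of the 46 were higher in pericyte-like than in smooth muscle-like cells with an interval clear of 1, 11 were lower, and for 20 the interval held 1. Of all 12934 genes, 3952 (30.6%) were higher and 1420 (11.0%) were lower by the same rule. The 15 were a share near that of all genes, and the 11 were a larger share. The counts of the single lists below are small and stand beside the same shares of all genes, 30.6% and 11.0%. For Abcc3, Abcc10, Kcnj2 and Kcnj16 no UMI was counted in the smooth muscle-like cells, and of the other genes none reached the ratios of Abcc9 and Kcnj8.

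Among other ABC transporters of the C family, 0 of 5 were highest in a mural class. Of all genes, 6.90% were highest in pericyte-like and 2.80% in smooth muscle-like cells, so 0 of 5 says little. Abcc4, an efflux pump of the brain endothelium, was highest in endothelial-like cells at 142 CPM and had 1 UMI, or 0.341 CPM, in the pericyte-like cells of the second clustering. Abcc1 was highest in monocyte-derived macrophage-like cells at 60.7 CPM, and Abcc3 was highest in microglia-like cells at 62.4 CPM. In the second clustering 2 of the 5 were higher in pericyte-like than in smooth muscle-like cells, Abcc1 at 3.20 (1.51 to 7.77) and Abcc5 at 1.96 (1.34 to 2.95), at 18.4 and 48.1 CPM in pericyte-like cells.

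Among other inward rectifiers, Kcnj12 (Kir2.2) was highest in pericyte-like cells, where it had 62.0 CPM while the smooth muscle-like class had 42.4 CPM, and in the second clustering the ratio was 1.28 with an interval from 0.965 to 1.72. Kcnj2 (Kir2.1), a strong inward rectifier of microglia and vessels, measured 71.8 CPM in neutrophil-like cells, 44.6 CPM in microglia-like cells, 1.71 CPM in pericyte-like cells and was not counted in the smooth muscle-like cells of the second clustering. Kcnj10 (Kir4.1), the glial potassium channel, was highest in oligodendrocyte-like cells at 276 CPM, and Kcnj16 (Kir5.1) in astrocyte-like cells at 80.5 CPM. In the mural cells Kcnj10 was 8.87 against 1.44 CPM, a ratio of 6.15 (1.54 to 53.5) on the pericyte side. Beside the 1743 CPM of Kcnj8, no other inward rectifier of this list passed 100 CPM in the pericyte-like cells.

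Signals that raise cAMP or cGMP relax mural cells, and protein kinase A opens the vascular KATP channel. The list holds receptors, cyclases, kinases and the phosphodiesterases that break the messengers down. Of its 15 genes with enough UMIs, 3 were higher in pericyte-like than in smooth muscle-like mural cells, 4 were lower, and for 8 the interval held 1. The adenosine receptor Adora2a was 134 CPM on the pericyte side and 25.9 CPM on the smooth muscle side, a ratio of 5.18 (3.68 to 7.51). Gucy1b1, a subunit of the nitric oxide receptor guanylyl cyclase, was 936 against 419 CPM, a ratio of 2.23 (2.04 to 2.44), while its partner Gucy1a1 was 604 against 573 CPM (1.05, 0.968 to 1.15). The regulatory subunit of protein kinase A Prkar1a had a ratio of 1.28 (1.17 to 1.40).

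The 4 genes lower in pericyte-like cells were 2 phosphodiesterases, a kinase and a receptor partner. The phosphodiesterase Pde3a had 96.9 CPM against 391 CPM in the same order, a ratio of 0.248 (0.214 to 0.286). Pde5a had a ratio of 0.699 (0.625 to 0.781), the cGMP-dependent kinase Prkg1 of 0.663 (0.554 to 0.795), and Ramp1, the partner of Calcrl in the CGRP receptor, of 0.0490 (0.0297 to 0.0769).

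Constrictor receptors act through Gq and protein kinase C, which closes the vascular channel. Of 7 genes of this list with enough UMIs, 3 receptors and 4 Gq or protein kinase C genes, 5 were higher in pericyte-like mural cells and 0 were lower. The 5 were the 3 receptors, the Gq gene Gnaq with a ratio of 1.54 (1.09 to 2.24) and the kinase Prkca with a ratio of 1.87 (1.10 to 3.33). The thromboxane receptor Tbxa2r was 235 against 43.2 CPM, a ratio of 5.44 (4.18 to 7.21), and the endothelin receptor Ednra was 249 against 186 CPM, a ratio of 1.34 (1.16 to 1.55). Ednrb had a ratio of 15.9 (11.5 to 22.6), but it was 3570 CPM in the response subcluster and from 44.2 to 60.5 CPM in subclusters 0 to 3. The study gives Ednrb the opposite effect to Ednra, through dilating factors, so its place in a constrictor list is open to doubt. In the clustering of all cells, which put most response cells with the smooth muscle-like class, Ednrb was highest in that class at 631 CPM.

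Of the other mural ion channels, 3 of 9 were higher in pericyte-like cells and 4 lower. Ano1, a calcium-activated chloride channel, was 167 against 117 CPM, a ratio of 1.42 (1.19 to 1.71), and Cacna1c, the pore of the L-type calcium channel, was 74.0 against 54.8 CPM, a ratio of 1.35 (1.04 to 1.78). The 4 lower genes were potassium channel genes. Kcna5 had 2.39 against 102 CPM, a ratio of 0.0233 (0.00921 to 0.0493), Kcnma1, the pore of the BK channel, was 1.02 against 43.2 CPM, a ratio of 0.0237 (0.00475 to 0.0726), Kcnk3 (TASK-1) had a ratio of 0.394 (0.319 to 0.487), and Kcnmb1, the BK channel's beta subunit, of 0.710 (0.550 to 0.919). These 4 genes thus differed from Kcnj8 in direction.

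Of 5 genes listed as nucleotide-handling enzymes, 3 were lower in pericyte-like than in smooth muscle-like cells. The brain creatine kinase Ckb was 242 against 1145 CPM, a ratio of 0.211 (0.193 to 0.231), and adenylate kinase Ak1 was 1.02 against 15.1 CPM, a ratio of 0.0676 (0.0129 to 0.226). For the catalytic subunits of AMP-activated kinase the ratios were 1.72 (1.06 to 2.90) for Prkaa1 and 0.365 (0.244 to 0.542) for Prkaa2.

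**Figure D5:**
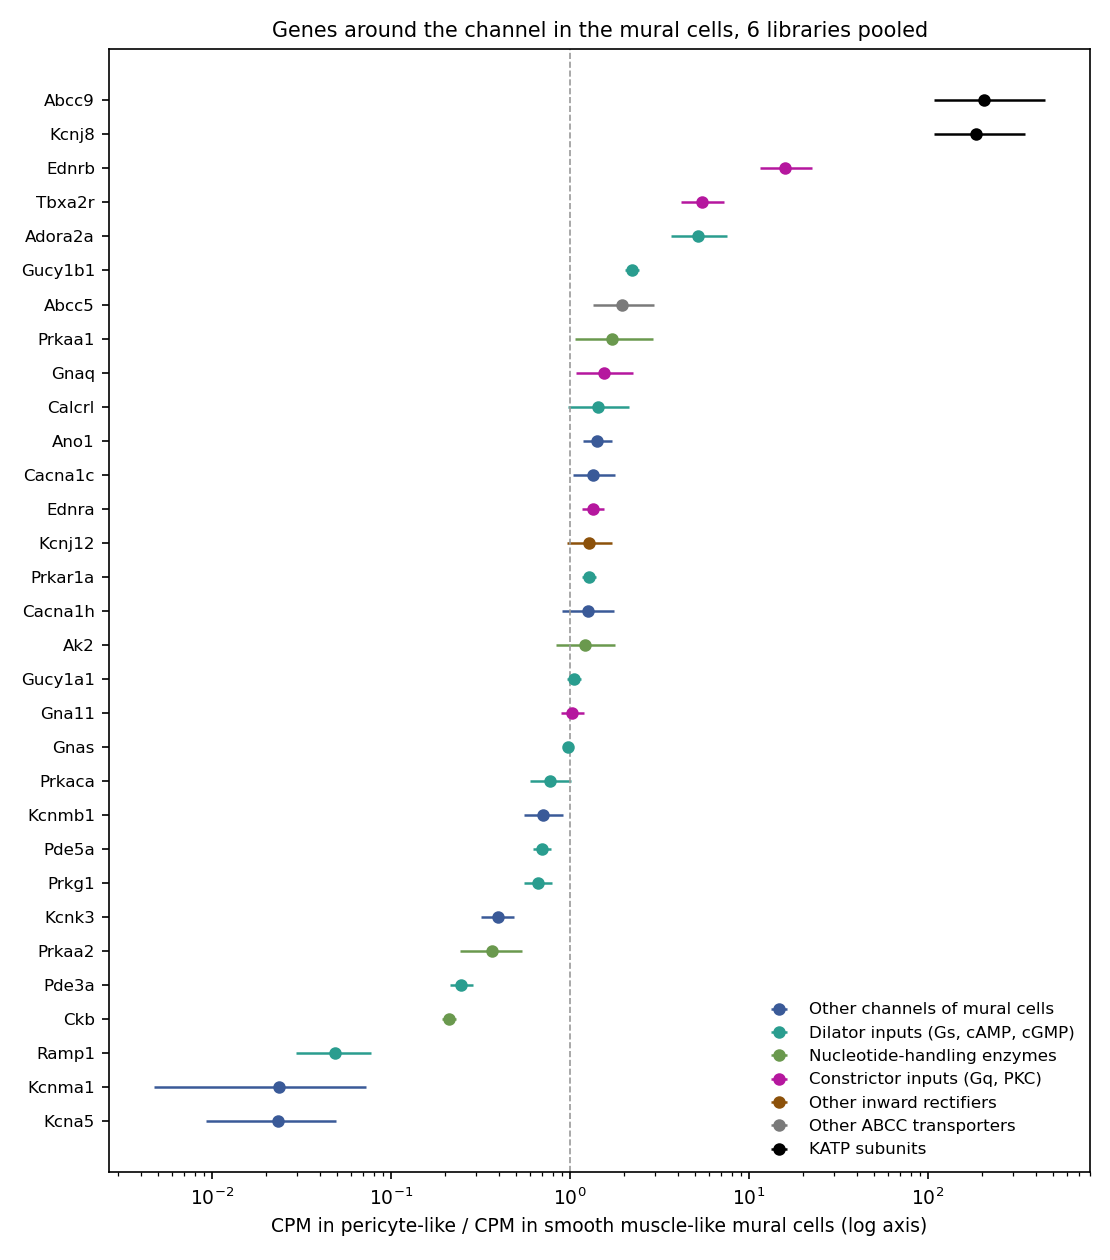
Ratio of the CPM in pericyte-like to that in smooth muscle-like cells of the second clustering (log axis) for Abcc9, Kcnj8 and the genes of the 6 lists with at least 200 UMIs, a finite ratio and at least 40 CPM over both classes together, less 1 gene not reported here, coloured by list; bars are 95% exact intervals and the dashed line marks equal levels. Abcc9 at 206 and Kcnj8 at 186 lie far to the right of the next gene, Ednrb at 15.9, and Kcna5 at 0.0233 and Kcnma1 at 0.0237 lie farthest to the left.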

How the data were processed

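Brain cortex cells of 6 groups, 1 library each, were measured with 10x 3′ sequencing. The deposited matrix holds UMI counts per gene and barcode, which the authors made with Cell Ranger 5 on mm10 (5.0.1 in the matrix header), the libraries having been aggregated to even out depth. Libraries held 12427757 to 40793772 UMIs. Barcodes with at least 200 features, at most 10% mitochondrial UMIs and a UMI total over 0.1 of the 99th percentile of the expected 3000 cells were kept. Log counts of 2000 variable genes, members left out, were clustered (leidenalg 0.10.2, 30 components, resolution 0.8), and pericyte-like and smooth muscle-like cells were clustered again with 15 components. A class needed 3 of its markers raised 2-fold and a lead over other classes, and clusters with over 50% called doublets stayed unnamed. In the second clustering, a mean log2 ratio of 3 or more for the markers of a non-mural class left a subcluster unnamed. A rule added after the data were seen left unnamed any cluster whose highest gene was a hemoglobin gene. Doublets (0.783% to 2.91% of cells per library) were called and kept. CPM is the gene's summed UMIs per 1000000 UMIs, with exact Poisson, conditional or Clopper-Pearson 95% intervals (scipy 1.17.1). Named genes were the 4 members, the 6 fixed lists, and those most alike over classes with at least 200 UMIs. Members and lists were chosen with earlier results of these data known. Interval scripts were tested on simulated data. Promoters are from RefSeq on GRCm38.p6, where 2 of the 4 members matched. Alternatives were the cell call, doublet removal, resolution, averaging, thinning, free RNA and leaving out each library. The use of the second clustering for shares and co-detection was added after the data were seen. The values of 1 gene of the lists are not reported here, and it stays in the list counts.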

Additional observations from a re-analysis of the deposited data

Results flagged for a closer look

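Barcodes of 1 to 50 UMIs, which hold no cell and belong to no class, carried members of the channel. Abcc9 measured 13.8 CPM in them (12.1 to 15.8, 222 UMIs) and Kcnj8 measured 28.2 CPM (25.6 to 30.9, 452 UMIs), both above the limit that a count of 0 allows. By library Abcc9 ran from 7.70 CPM in library 2 to 20.8 CPM in library 3, and Kcnj8 from 15.2 CPM in library 6 to 55.7 CPM in library 3. These levels were higher than those of every named class of the second clustering outside the pericyte-like cells, of which the highest were 6.49 CPM of Abcc9 (smooth muscle-like) and 22.4 CPM of Kcnj8 (T lymphocyte-like). The unnamed mural subclusters 7 to 9 were higher, with 218 to 524 CPM of Abcc9 and 573 to 965 CPM of Kcnj8. Free RNA is only part of a class's UMIs, an estimated fraction of 0.0133 in monocyte-derived macrophage-like to 0.281 in pericyte-like cells. With that part subtracted, Kcnj8 was 17.2 CPM in T lymphocyte-like and -0.171 CPM in endothelial-like cells. Abcc9 in endothelial-like cells was then 1.45 CPM. Kcnj8 fell to -3.10 CPM in astrocyte-like cells, so the subtraction took off too much there. In choroid plexus-like cells it fell to -5.95 CPM from a count of 0. The interval of that count reached 21.6 CPM, so it cannot show whether too much was taken off. The fraction was estimated from microglia or oligodendrocyte markers in each class with called doublets kept, and doublets can raise it. Abcc8 had 4 UMIs and Kcnj11 had 3 UMIs in the barcodes of 1 to 50 UMIs.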

How the results depend on the processing

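The ratios to the next class and the Abcc9 ratio of the response subcluster turned direction in no alternative run, and the ratios of the gene lists and of single subclusters were not recomputed under these alternatives. The Abcc9 level in pericyte-like cells was 1391 CPM without called doublets, 1187 and 1215 CPM at resolutions 0.4 and 1.2, 1212 CPM with libraries weighted equally, and 1218 to 1347 CPM in the leave-one-out fits. The Kcnj8 level was 1766, 1566 and 1606 CPM in the first 3 of these, 1753 CPM as the mean of the cells' own CPM, 1743 CPM with the second clustering and 1554 to 1728 CPM leaving out a library. The ratio to the next class depended most on the clustering. For Abcc9 it was 194 and 199 at resolutions 0.4 and 1.2, 206 with the second clustering, 6.50 as the mean of the cells' own CPM, 6.70 with equal libraries and 5.93 to 12.5 leaving out a library. For Kcnj8 it was 69.8, 71.6 and 77.7 in the first 3 of these, where the next class was T lymphocyte-like. It was 4.10 (own CPM) and 4.09 to 7.07 (leaving out a library) against smooth muscle-like cells, the next class in every Abcc9 value. Cells kept by the published filters alone gave shares of 86.0% (Abcc9), 88.1% (Kcnj8) and 78.4% (both), and thinning gave 66.3%, 69.9% and 49.9%, with co-detection at 1.08 times the product. Leaving out a library gave 89.96% to 91.7%, 92.6% to 93.8% and 84.4% to 87.1%, and 1.01 times the product in every case. At such shares that ratio could not move far from 1. Kcnj8 UMIs per Abcc9 UMI were 1.32 at both other resolutions and 1.22 to 1.35 leaving out a library. The response subcluster held 0.777 of the Abcc9 level with equal libraries, and 0.584 to 0.859 leaving out a library. For Kcnj8, whose reported interval holds 1, the latter range was 0.804 to 1.26. The causes of these shifts were not tested. Free RNA subtraction, run for the levels, the ratios to the next class and the Kcnj8 to Abcc9 ratio, moved none of them past its limit. In the pericyte-like class, levels under about 1 CPM lay under the limit of 3 counts at the depth of these libraries.

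No paired analysis was possible because the library numbers in the barcodes are not tied to groups and no test was run.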
